A study of Homo sapiens with 6 samples.

Results

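The genes described here are 33 genes of the unfolded protein response and of the ATF4 stress programme, taken from a list of symbols. They were measured in WM-266.4 cells, an established human melanoma line grown from a metastasis. Each gene was represented by the brightest probe set (a group of short probes for 1 transcript) annotated with that gene alone. SYVN1, the ubiquitin ligase of ER-associated degradation, has a probe set annotated with a second gene as well and was not analysed here, which left 32 of 33 members. They stand among 13071 measured genes of 19775 represented. A gene counted as measured where any pool averaged over 70.2 signal units, the median of all values, and all 32 members passed. Of these, 30 were bright, passing 458.4 units (the 75th percentile of all values) in some pool, while ERN1 and CHAC1 were dim.

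The study compared 3 pools of RNA. The siPIR cells received 200 pmol of a pool of 4 siRNA duplexes against PIR, which encodes pirin, an iron-binding nuclear protein. The siCTR cells received 200 pmol of 4 non-targeting duplexes, and the NO cells went through the Oligofectamine procedure with no oligonucleotide. All groups share the line, the serum-free transfection and the harvest 72 h later. RNA of 3 extractions was mixed for each group, and 2 HG-U133 Plus 2 arrays (Affymetrix) were hybridised with the mixture. A group is thus 1 sample, its arrays are repeat hybridisations, and no test of the conditions is possible. In bulk RNA, fewer cells of a type and less RNA per cell cannot be told apart.

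The endoplasmic reticulum (ER) folds secreted and membrane proteins, and unfolded protein there is sensed by 3 membrane proteins, the products of ERN1, EIF2AK3 and ATF6. The ERN1 product splices XBP1 mRNA into the form that encodes an active transcription factor, and ATF6 is cut to release another, and together they raise chaperones and degradation factors. The EIF2AK3 product phosphorylates the initiation factor eIF2, which lowers protein synthesis but favours translation of ATF4. ATF4 then induces DDIT3, TRIB3, ASNS and other genes, and the PPP1R15A product removes the phosphate again. ATF4 is also reached by amino acid shortage, without ER stress, so ER chaperones and ATF4 targets can be followed as separate arms.

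Promoter elements of these arms were looked up in the RefSeq windows of GRCh38.p14, from 250 bases before to 50 after each listed start, for the 30 members that have one. They are shown as a description. The members were chosen as genes of these arms, so a division of them by element is not independent of that choice. The ER stress element ERSE, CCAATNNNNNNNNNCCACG, binds NF-Y together with ATF6 or XBP1, and on either strand it was in 0.0769% of all 35116 windows. It was in the windows of 8 members, namely HSPA5, HSP90B1, CALR, CANX, PDIA6, CRELD2, SERP1 and XBP1. The shorter ERSE-II, which is ATTGG and CCACG with 1 base of any kind between them, was in 0.0541% of windows and in those of HYOU1, HERPUD1 and SDF2L1. Together these 11 members included 9 of 13 chaperones with a window and 0 of 8 ATF4 targets. The stretches below lie before every listed start of their gene, are written 5′ to 3′ in the direction of the gene, and have the element in capitals. An element on the opposite strand therefore reads as its reverse complement, and beside each name stand its coordinates and strand.
HSPA5, chr9:125241371-125241429, minus strand: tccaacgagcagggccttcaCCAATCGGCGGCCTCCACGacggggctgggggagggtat
HSP90B1, chr12:103930196-103930359, plus strand: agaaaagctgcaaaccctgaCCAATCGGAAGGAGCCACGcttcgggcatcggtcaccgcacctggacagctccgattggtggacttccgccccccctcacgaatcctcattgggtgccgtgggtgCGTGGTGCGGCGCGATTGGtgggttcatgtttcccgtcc
CALR, chr19:12938364-12938422, plus strand: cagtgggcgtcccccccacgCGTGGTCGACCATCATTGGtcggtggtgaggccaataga
CRELD2, chr22:49918534-49918592, plus strand: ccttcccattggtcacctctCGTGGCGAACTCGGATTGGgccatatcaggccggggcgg
SERP1, chr3:150546690-150546746, minus strand: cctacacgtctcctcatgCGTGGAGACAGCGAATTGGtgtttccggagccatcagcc
XBP1, chr22:28800583-28800641, minus strand: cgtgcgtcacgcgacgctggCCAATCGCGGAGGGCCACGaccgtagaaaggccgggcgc
HYOU1, chr11:119057254-119057410, minus strand: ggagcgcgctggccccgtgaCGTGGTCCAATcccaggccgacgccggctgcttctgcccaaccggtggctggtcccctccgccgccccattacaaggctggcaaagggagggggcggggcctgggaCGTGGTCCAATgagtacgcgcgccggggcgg
HERPUD1, chr16:56932005-56932055, plus strand: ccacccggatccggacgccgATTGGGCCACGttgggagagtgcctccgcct
SDF2L1, chr22:21642094-21642144, plus strand: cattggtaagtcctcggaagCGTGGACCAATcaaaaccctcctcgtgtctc

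HSP90B1 and HYOU1 each held 2 copies of their element in the window. On the ATF4 side, the C/EBP-ATF response element, CARE, was searched as TGATGNAA on both strands. It is short and was in 3.62% of all windows, among them those of ASNS, CEBPG, CHAC1 and HERPUD1. The element UPRE, searched as TGACGTGG, was in 0.729% of windows and in that of HYOU1 alone among the members, where it overlaps an ERSE-II. The ASNS and CHAC1 stretches follow, with CARE in capitals; that of CHAC1 lies on the opposite strand.
ASNS, chr7:97872449-97872496, minus strand: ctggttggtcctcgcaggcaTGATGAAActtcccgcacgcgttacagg
CHAC1, chr15:40953242-40953289, plus strand: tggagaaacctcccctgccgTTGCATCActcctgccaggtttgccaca

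A match is a description of letters in these windows and not a measurement of binding. PDIA3, NUPR1 and EIF4EBP1 had no window in the table.

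PIR itself was at 392.3 and 381.5 signal units in siPIR, against 13544 and 13180 in siCTR and 13990 and 14153 in NO. Array medians over all probe sets ranged from 64.2 to 74.8. All 7 melanocyte lineage markers on the array were measured. Of the markers of other cell types, the fibroblast list had 3 of 6 measured, and its summed signal was 22951 to 23946 in siPIR, 14614 to 15806 in siCTR and 12639 to 12722 in NO. The higher sum was COL1A2, since LUM averaged 108 units in siPIR, 150 in siCTR and 167 in NO and COL1A1 193 in siPIR, 206 in siCTR and 120 in NO, and COL3A1, DCN and PDGFRB were below the measured level in all pools. The leukocyte list had 1 of 4 measured (CD14), with sums of 339 to 363 in siPIR, 185 to 203 in siCTR and 164 to 199 in NO. PTPRC and CD3E were below the measured level there. The keratinocyte list had 1 of 4 measured (KRT10), with sums of 2631 to 2743 in siPIR, 3266 to 3656 in siCTR and 3227 to 3388 in NO. The endothelial list had 2 of 4 measured, with sums of 436 to 503 in siPIR, 385 to 400.2 in siCTR and 520 to 687 in NO. For ACTB, the 3′ probe set divided by the 5′ one gave 1.13 on both siPIR arrays and 1.23 to 1.27 on the control arrays. The part of these differences in the members' values was not tested.

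Values were compared as log2(signal + 5.4), and a difference below is a difference of pool means on that scale, followed by its range over the 4 pairs of arrays. A gene was called between pools when the difference was at least 1 in size, that is 2-fold, and the arrays of the pools did not overlap. Between siPIR and siCTR, 1 of 32 members was called higher and 0 lower, where 3.75% of all measured genes were called higher and 4.26% lower. Between siPIR and NO, 2 were called higher and 1 lower, against 3.67% and 5.48% of all measured genes. Against both controls at once 1 member was called, PPP1R15A, which was higher (1.52% of all measured genes were called higher and 3.22% lower). At the smaller size of 1.5-fold, 1 member was higher than siCTR and 3 were lower (XBP1, EDEM1 and DNAJB9), beside 10.7% and 10.1% of all measured genes. Against NO, 7 were higher (PPP1R15A, CHAC1, VLDLR, CALR, HYOU1, CRELD2 and ERN1) and 2 lower (XBP1 and DNAJC3), beside 11.9% and 12.9%. Past 1.5-fold against both controls there were 1 higher (PPP1R15A) and 1 lower (XBP1), beside 6.37% and 7.55% of all measured genes. Most of these shares were near or under the background. The 7 members higher than NO at 1.5-fold were a larger share than that of all measured genes, with CHAC1 among them, and this was not tested. Most differences described below are smaller than 2-fold. The siPIR pool enters both comparisons, so they are not independent.

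**Figure D1:**
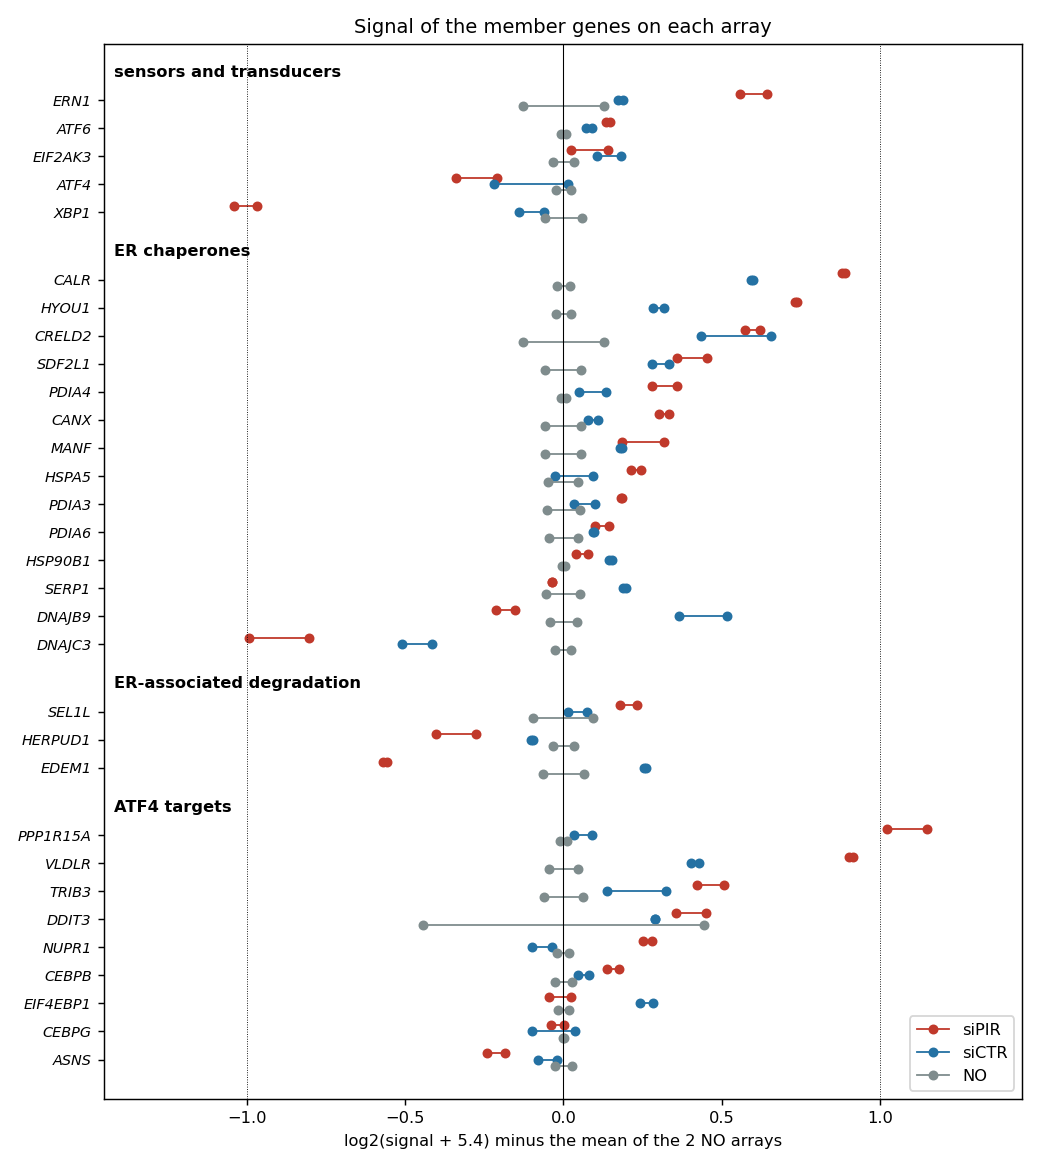
Log2 signal of 31 members on each of the 6 arrays, relative to the mean of the 2 NO arrays of the same gene (horizontal axis, log2 units; 1 row per gene, arrays of a pool joined by a line; dotted lines mark 2-fold). XBP1 and DNAJC3 lie farthest left and PPP1R15A, VLDLR and CALR farthest right in siPIR; CHAC1, whose arrays spread beyond the axis, is not drawn.

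The members were measured with little spread between repeat arrays. The median gap between the arrays of a pool was 0.05 on the log2 scale in siPIR, 0.05 in siCTR and 0.09 in NO, against 0.14, 0.13 and 0.12 over all measured genes. Of the members, 30 of 32 were bright, against 8272 of 13071 measured genes, and the gap over bright genes alone was not taken. CHAC1 had the largest gap in each pool, with 1.09 in siPIR, 0.36 in siCTR and 2.22 in NO, and DDIT3 was the other member with a gap of at least 0.5, in NO, at 273 and 509 units. Between siPIR and siCTR, 27 of 32 members did not overlap, 18 higher and 9 lower, beside 66.1% of all measured genes (36.6% higher and 29.5% lower). Between siPIR and NO it was also 27, with 20 higher and 7 lower, beside 70.4% (37.7% and 32.7%). Among bright genes alone the counts were 26 and 25 of 30 members, beside 75.5% and 79.2% of genes. Non-overlap here speaks of hybridisation error only.

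Among the sensors and transducers, XBP1 had the largest difference. Its signal was 1476 and 1553 in siPIR, against 2759 and 2914 in siCTR and 2918 and 3167 in NO. Both siPIR arrays lay far below all 4 control arrays, and the control pools lay close together. The log2 difference was -0.90 against siCTR (-0.98 to -0.83) and -1.003 against NO (-1.10 to -0.91), and it was called lower against NO alone. That call was lost without siPIR replicate 1 (-0.97) or without NO replicate 2 (-0.94). Of all measured genes, 5.48% had a lower difference from siCTR and 5.81% a lower one from NO. Spliced and unspliced XBP1 mRNA were not told apart here. A second, dim XBP1 probe set averaged 8.25 units in siPIR, 41.4 in siCTR and 51.3 in NO, below the measured level throughout.

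ERN1, the sensor kinase and nuclease that splices XBP1, ran the other way. It was at 408 and 384 units in siPIR, against 296 and 293 in siCTR and 283 and 237 in NO, with differences of 0.42 (0.37 to 0.47) and 0.60 (0.43 to 0.77). The siPIR arrays were above all control arrays, but another measured ERN1 probe set gave -0.17 against siCTR. EIF2AK3, the eIF2 kinase PERK, was at 1823 and 1976 units in siPIR, 2035 and 1931 in siCTR and 1833 and 1752 in NO, so that siPIR overlapped each control. ATF6 was at 1282 and 1294 units in siPIR, 1227 and 1243 in siCTR and 1162 and 1173 in NO. Its arrays did not overlap, but the differences were 0.06 and 0.14, and other ATF6 probe sets gave down to -0.29 and -0.42.

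ATF4 mRNA was at 6827 and 6252 units in siPIR, 7981 and 6796 in siCTR and 7773 and 8037 in NO. It was lower in siPIR than in NO by a difference of -0.27 (-0.36 to -0.19) and overlapped siCTR. ATF4 is controlled mainly at translation, which an mRNA level does not show. The median of the 5 sensors and transducers was -0.06 from siCTR and 0.08 from NO, beside 0.05 and 0.03 over all measured genes. As the mean over all probe sets, the value from NO was -0.27. That mean takes in an EIF2AK3 probe set below the measured level, at 5.15 units in siPIR and 32.4 in NO (-1.87). Measured ATF6 probe sets enter it as well, with values of -0.42 to 0.15 from NO.

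The ATF4 target with the largest well-measured difference was PPP1R15A (GADD34), the phosphatase subunit that directs removal of phosphate from eIF2. It was at 2638.5 and 2416 units in siPIR, against 1215 and 1263 in siCTR and 1196 and 1178 in NO. Both siPIR arrays were far above every control array, and the controls differed from each other by 0.06. The log2 difference was 1.02 against siCTR (0.93 to 1.12), a 2.03-fold higher level, and 1.09 against NO (1.01 to 1.16), a 2.12-fold higher level. Its second measured probe set gave 1.23 and 1.05. The call stands close to its threshold, since the difference from siCTR was 0.96 without siPIR replicate 1, 0.996 without siCTR replicate 1 and 0.98 when centred on the median of all measured genes. Of all measured genes, 4.06% had a higher difference from siCTR.

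VLDLR, a lipoprotein receptor induced through ATF4 in ER stress, was at 4156 and 4120 units in siPIR, 2918 and 2964 in siCTR and 2275 and 2134 in NO. The pools stood in the order siPIR, siCTR, NO with no overlap, and the differences were 0.49 (0.47 to 0.51) and 0.91 (0.86 to 0.96). TRIB3, a pseudokinase that curbs ATF4 output, was at 2404 and 2552 units in siPIR, 1973 and 2245 in siCTR and 1718 and 1872 in NO. It kept the same order at smaller size, with differences of 0.23 (0.10 to 0.37) and 0.46 (0.36 to 0.57), and its second probe set gave 0.50 and 0.87. NUPR1, a stress-induced chromatin protein, differed by 0.33 and 0.27.

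DDIT3, which encodes the pro-apoptotic factor CHOP, was at 479 and 512 units in siPIR, 457 and 458 in siCTR, and 273 and 509 in NO. It was thus nearly level between siPIR and siCTR (0.11, from 0.07 to 0.16), and the NO arrays were too far apart to place it against that pool (-0.09 to 0.89). ASNS, the amino acid response enzyme that makes asparagine, was at 1681 and 1747 units in siPIR, against 1880 and 1958 in siCTR and 1949 and 2023 in NO. It was the lowest in siPIR, by -0.16 and -0.21. CHAC1, which degrades glutathione, was at 126 and 56.3 units in siPIR, 91.7 and 70.1 in siCTR and 47.1 and 5.9 in NO. It was called higher than NO in siPIR (1.89, from 0.23 to 3.54) and also in siCTR (1.81, from 0.52 to 3.10), but both calls were lost without the lower NO array, replicate 2 (0.78 and 0.71).

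The remaining ATF4 targets had small differences. CEBPB, a leucine zipper factor, differed by 0.09 and 0.16, and CEBPG, a partner of ATF4, by 0.01 and -0.02. EIF4EBP1, an inhibitor of cap-dependent translation, differed by -0.27 from siCTR and -0.01 from NO. The 10 ATF4 targets had a median of 0.10 from siCTR, with 8 positive, and of 0.33 from NO, with 7 positive. Over all measured genes the medians were 0.05 and 0.03, with 54.6% and 52.9% positive.

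**Figure D2:**
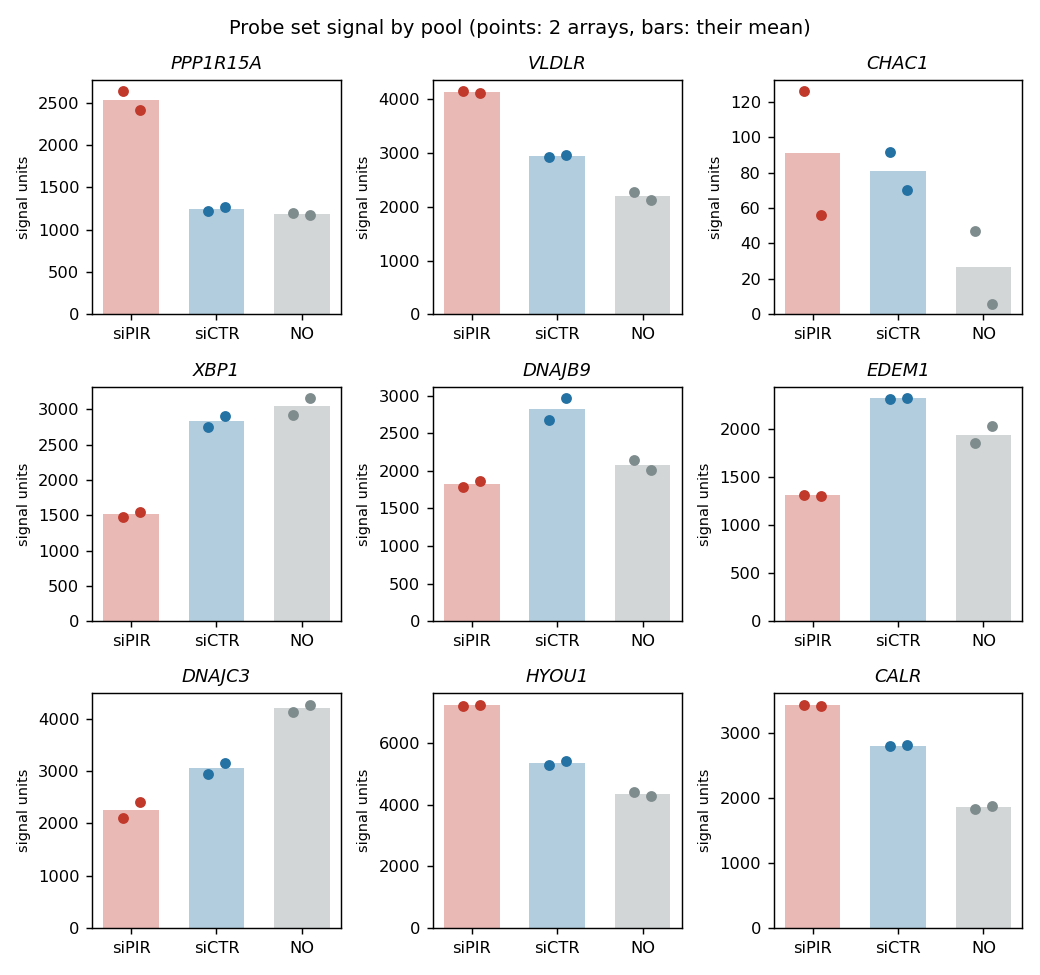
Probe set signal (vertical axes, linear signal units from 0) of 9 members in the siPIR, siCTR and NO pools; points are the 2 arrays and bars their mean. PPP1R15A is high and XBP1 low in siPIR alone, HYOU1, CALR and VLDLR step down from siPIR through siCTR to NO, and CHAC1 has scattered low values.

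The ER chaperones were higher as a majority, by small amounts. Of 14, 10 had a positive difference from siCTR and 11 from NO, beside 54.6% and 52.9% of all measured genes, with medians of 0.08 and 0.24. None was called 2-fold in any comparison. HSPA5 (BiP), the main ER chaperone and the one that holds the sensors inactive, was at 32331 and 31674 units in siPIR, 26790 and 29086 in siCTR and 26411 and 28189 in NO. Both siPIR arrays were above every control array, by differences of 0.20 (0.12 to 0.27) and 0.23 (0.17 to 0.29). Its second probe set disagreed in sign against siCTR (-0.27). HSP90B1 (GRP94), the ER member of the HSP90 family, was at 12905 and 13256 units in siPIR, 13988 and 13876 in siCTR and 12602 and 12523 in NO. It lay between the controls, and its probe set is marked as able to bind other transcripts. A second, dimmer probe set, marked in the same way, gave -0.23 from siCTR (-0.54 to 0.08) and -0.58 from NO (-0.66 to -0.50).

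HYOU1, a nucleotide exchange factor for HSPA5, was the chaperone with the largest positive difference from siCTR. It was at 7225 and 7261 units in siPIR, 5293 and 5429 in siCTR and 4421 and 4282 in NO. The differences were 0.43 (0.41 to 0.46) and 0.73 (0.71 to 0.76), in the same order of pools as VLDLR. CALR, the calcium-binding lectin chaperone calreticulin, was at 3435 and 3409 units in siPIR, 2793 and 2807 in siCTR and 1826 and 1877 in NO. Its difference was 0.29 (0.28 to 0.30) from siCTR and 0.88 (0.86 to 0.91) from NO, while siCTR differed from NO by 0.60. Of its other probe sets, 1 gave -0.09 against siCTR, and the chosen one may bind other transcripts.

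CRELD2, a secreted ER-stress protein, showed no such step between the siRNA pools. It differed from siCTR by 0.05 (-0.08 to 0.19) and from NO by 0.60 (0.45 to 0.75). CANX, the membrane lectin chaperone calnexin, differed by 0.22 and 0.32, and the disulphide isomerases PDIA4 by 0.23 and 0.32, PDIA3 by 0.12 and 0.18 and PDIA6 by 0.03 and 0.12. SDF2L1, a partner of the HSPA5 cycle, differed by 0.10 and 0.41, and MANF, a secreted protective factor, by 0.07 and 0.25.

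The chaperones that were lower than siCTR were DNAJB9, DNAJC3, SERP1 and HSP90B1. DNAJB9, a J-domain co-chaperone that restrains ERN1, was at 1788 and 1865 units in siPIR, 2676 and 2971 in siCTR and 2139 and 2013 in NO. On this brightest probe set the DNAJB9 difference was -0.62 from siCTR (-0.73 to -0.52) but -0.18 from NO (-0.26 to -0.11), and siCTR was above NO by 0.44. Its other probe sets gave -0.74 and -0.15 from siCTR, and -0.67 and -0.05 from NO. On these, siCTR was 0.07 and 0.10 above NO, with overlapping arrays. DNAJC3, a J-domain inhibitor of eIF2 kinases, was at 2109 and 2403 units in siPIR, 2951 and 3151 in siCTR and 4125 and 4274 in NO. The brightest DNAJC3 probe set thus gave -0.44 and -0.90, but the other 3 gave 0.11 to 0.45 against siCTR and -0.28 to 0.01 against NO, so that the probe sets of DNAJC3 gave no single direction. SERP1, which stabilises proteins at the translocon, differed by -0.23 and -0.04, with 1 of 4 probe sets of opposite sign against siCTR.

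Of the degradation factors, EDEM1, which hands misfolded glycoproteins to the degradation machinery, was the lowest. Its signal was 1314 and 1302 in siPIR, against 2311 and 2322 in siCTR and 1851 and 2026 in NO. Every siPIR array was below every control array, with differences of -0.82 (-0.83 to -0.81) and -0.56 (-0.64 to -0.49) on its only probe set. HERPUD1, a scaffold of the ligase complex, was at 3337 and 3053 units in siPIR, 3775 and 3762 in siCTR and 4130 and 3947 in NO, a difference of -0.24 and -0.34. SEL1L, the adaptor of that complex, went the other way on all 4 of its probe sets, with 0.16 against siCTR on the brightest and 0.58 to 0.78 on the others. The 3 genes therefore did not share a direction.

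**Figure D3:**
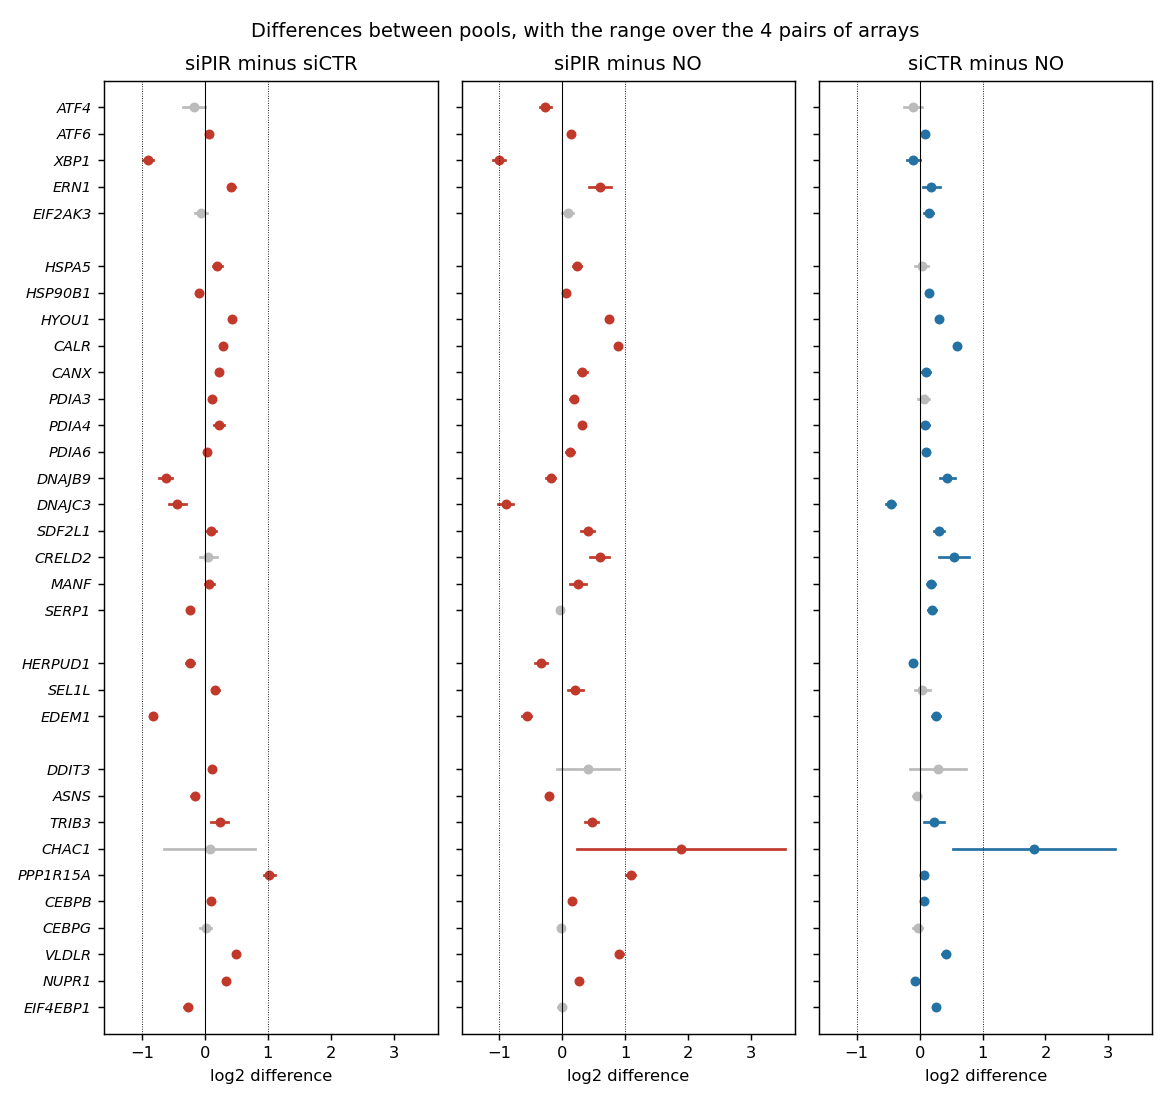
Log2 difference of each of the 32 members (rows, grouped from the top as sensors and transducers, ER chaperones, degradation factors and ATF4 targets) in siPIR minus siCTR, siPIR minus NO and siCTR minus NO. Points are pool differences, bars the range over the 4 pairs of arrays, grey where arrays overlap, and dotted lines mark 2-fold; PPP1R15A reaches the line in both siPIR panels and most members sit within 0.5 of zero.

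Members also differed between the control pools. In siCTR, 25 of 32 members and 13 of 14 chaperones had a positive difference from NO, beside 51.1% of all measured genes, and DNAJC3 was the chaperone below zero (-0.46). Other measured probe sets were below zero for the chaperones CANX, HSP90B1, PDIA3 and SERP1, and for ATF6, ERN1, PPP1R15A and SEL1L. The median over the chaperones was 0.17, and the largest were CALR at 0.60 and CRELD2 at 0.54. The other CALR probe sets gave 0.29 and 0.95. Only CHAC1 was called 2-fold higher and 0 members were called lower, beside 1.04% and 2.47% of all measured genes. At 1.5-fold CALR joined it, 2 higher and 0 lower, beside 2.86% and 5.38%. Without regard to size, 25 members did not overlap, 21 higher and 4 lower, beside 53% of all measured genes (28.1% and 24.9%), and 23 of 30 bright members, beside 59.5% of bright genes. EIF2AK3 was also above NO in siCTR, by 0.15 (0.07 to 0.22), EIF4EBP1 by 0.26 and EDEM1 by 0.26.

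Because siCTR stood between siPIR and NO for many members, the full order was counted, which was decided on once the values had been seen. For 13 of 32 members both siPIR arrays lay above both siCTR arrays and these above both NO arrays, beside 10.6% of all measured genes and, with 12 of 30 members, 14.9% of bright genes. They were 7 of 14 chaperones (HYOU1, CALR, CANX, PDIA4, PDIA6, SDF2L1 and MANF), 4 of 10 ATF4 targets (VLDLR, TRIB3, PPP1R15A and CEBPB), ERN1 and ATF6. The steps were uneven, since PDIA6 was 0.03 above siCTR while PPP1R15A was 1.02 above it. With differences centred on the median of all measured genes the count was 9 (9.03% of all measured genes), and as the mean over a gene's probe sets it was 8 (7.08% of all measured genes). The reverse order was seen for XBP1, DNAJC3 and HERPUD1, 3 of 32, beside 7.38% of all measured genes (9.65% of bright genes). As the mean over probe sets it was seen for 0 members, beside 6.54% of all measured genes.

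**Figure D4:**
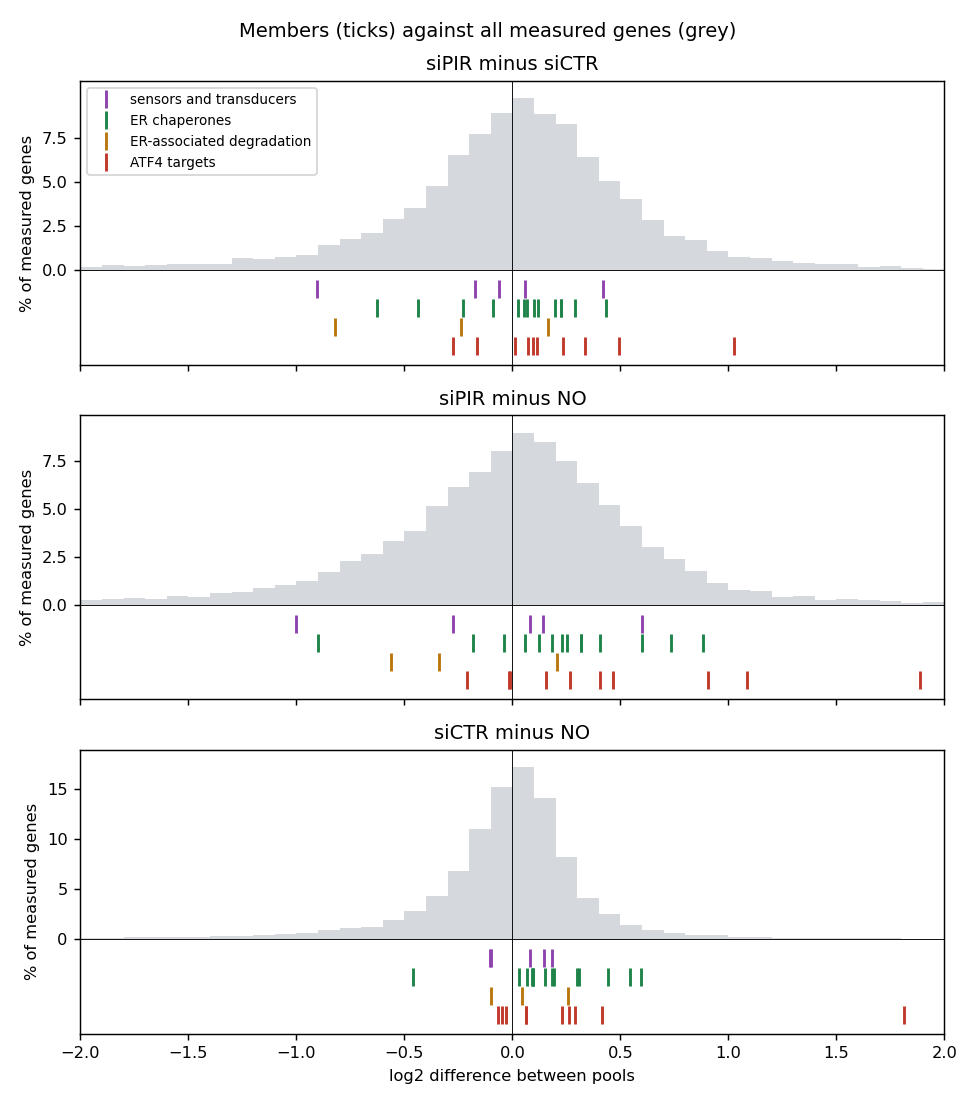
Distribution of the log2 difference of all 13071 measured genes (grey bars, percent of genes per 0.1 log2 units, cut at ±2) in the 3 comparisons, with the members as coloured ticks below by role. Most ticks lie within the body of the grey distribution; PPP1R15A is at the right in both siPIR panels, CHAC1 at the right in both panels with NO, and XBP1 leftmost in both siPIR panels.

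Set side by side, the medians against siCTR were 0.08 for 14 chaperones and 0.10 for 10 ATF4 targets, and against NO 0.24 and 0.33. Over all measured genes the medians were 0.05 against siCTR and 0.03 against NO. With differences centred on that median, the chaperones were at 0.038 and the ATF4 targets at 0.057 from siCTR. The medians of the 2 groups also moved when 1 array was left out. Without siPIR replicate 1 the chaperones were at 0.040 from siCTR, without siPIR replicate 2 at 0.13, and without NO replicate 1 both groups were at 0.19 from NO. On wider lists of 19 other ER folding genes the medians were 0.22 and 0.27 against siCTR and NO, on 17 other degradation genes 0.15 and 0.19, and on 25 other ATF4 targets 0.04 and -0.01. With 1 pool a group the difference between the arms could not be tested. Within each arm the members ranged from -0.62 (DNAJB9) to 0.43 (HYOU1) among the chaperones and from -0.27 (EIF4EBP1) to 1.02 (PPP1R15A) among the ATF4 targets, against siCTR. Members with and without an ERSE or ERSE-II had close medians. The 11 members with an ERSE or ERSE-II had a median of 0.05 against siCTR, with a range from -0.90 (XBP1) to 0.43 (HYOU1). The 18 measured members with a window but no such element had a median of 0.07, from -0.82 (EDEM1) to 1.02 (PPP1R15A). Against NO the 2 medians were 0.23 with such an element and 0.18 without. The 4 members with CARE had a median of -0.07 from siCTR, with 2 positive and 2 negative. From NO their median was -0.11, with 3 negative and 1 positive (CHAC1, 1.89).

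Of the 32 members, 16 had more than 1 measured probe set. For 8 of these the probe sets disagreed in sign against siCTR, and for 4 against NO. Against siCTR these were ATF6, CALR, CANX, DNAJC3, ERN1, HSPA5, PDIA6 and SERP1, and against NO they were ATF6, CANX, DNAJC3 and HSP90B1. PPP1R15A, DNAJB9, SEL1L, TRIB3, PDIA3 and PDIA4 kept 1 sign on all measured probe sets in both comparisons.

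**Figure D5:**
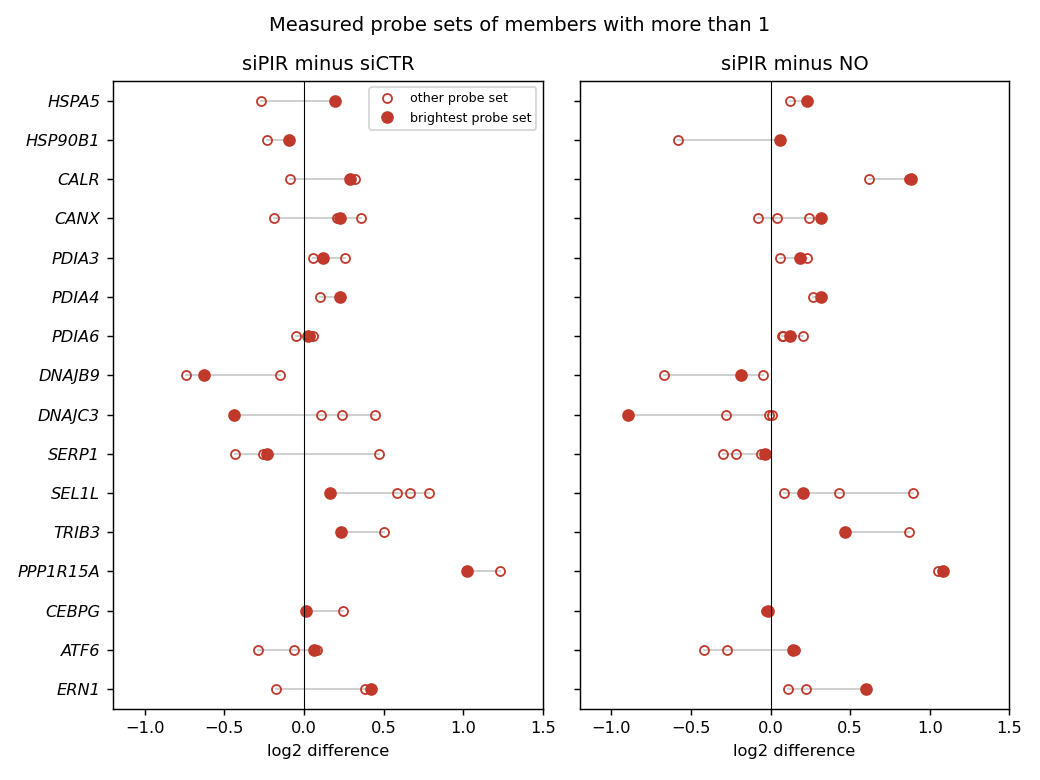
Log2 difference (horizontal axes) of siPIR minus siCTR and siPIR minus NO for every measured probe set of the 16 members with more than 1; filled points are the brightest probe set used in the text and open points the others. DNAJC3 spans zero against siCTR with its brightest probe set alone on the negative side, while both PPP1R15A points lie above 1.

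Other genes of the pathway were taken from 6 lists of 126 genes, of which 117 were measured. Against both controls, 2 were called higher and 2 lower, a share near the background of 1.52% and 3.22%. The higher ones were ATF4 targets. SESN2, an inhibitor of mTORC1 that p53 also induces, was at 947 and 894 units in siPIR, 429 and 402 in siCTR and 244 and 318 in NO. SLC7A5, the light chain of a large neutral amino acid transporter, was at 6178 and 5711 units in siPIR, 3015 and 2625 in siCTR and 2470 and 2071 in NO, a difference of 1.08 and 1.39.

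PHGDH, the first enzyme of serine synthesis and also an ATF4 target, was called lower, at 1594 and 1724 units in siPIR, 3809 and 3665 in siCTR and 3476 and 3651 in NO. The other called lower was FKBP14, an ER prolyl isomerase, at 1287 and 1247 units in siPIR, 2952 and 3211 in siCTR and 3419 and 3406 in NO (-1.28 and -1.43). ATF4 targets outside the member list thus held calls in both directions, among 25 measured. At 1.5-fold against both controls, 5 of these 25 were higher and 3 lower, beside 6.37% and 7.55% of all measured genes. The list of eIF2 kinases, eIF2 and its exchange factor had 0 of 15 called 2-fold against either control. Of all measured genes, 3.75% were called higher and 4.26% lower than siCTR, and 3.67% and 5.48% than NO. At 1.5-fold, 0 of the 15 were called against siCTR and 1 was lower than NO, beside 12.9% of all measured genes. The medians of the 15 were -0.11 and -0.10, beside 0.05 and 0.03 over all measured genes. Without overlap, 1 of these 15 was above siCTR and 8 below, beside 36.6% and 29.5% of all measured genes, and 4 were above NO and 7 below, beside 37.7% and 32.7%.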

How the data were processed

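The authors deposited 1 value per array and probe set, an intensity on a linear scale. Per the submitters' processing notes they come from GCOS (version and settings not given in the sources used here). The mean of each array, trimmed by 2% at either end, was 500.1, a pattern of global scaling, which sets overall signal to a common level. Total signal still differed, at 4.66e+07 and 4.65e+07 units in siPIR, 4.55e+07 and 4.58e+07 in siCTR and 4.48e+07 and 4.58e+07 in NO. The part of this in the small differences of members was not tested. No detection calls were used, and 0 columns were left unmatched. The number of arrays limits the precision of each pool's value, and with 1 pool a group the variation between cultures was not measured.

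Python 3.11.15 with pandas 2.3.3 and NumPy 2.4.6 was used. The annotation gave 1 gene for 41097 of 54675 probe sets and several for 1801, and did not list 11777. Symbols were updated through Entrez identifiers (99.9% found in RefSeq). Array values were transformed as log2(value + 5.4), the 10th percentile of all values, and averaged per pool. With 1 RNA pool a group no test was run, so genes were called by size (2-fold) and non-overlap. The members, lists and rules were chosen with earlier results of these data known. All members may be named. Every array is given for sensors, leading members and calls, and pathway genes were named when called against both controls. Alternatives covered pseudocount, probe set choice, scaling, filter, fold and each array left out.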

Additional observations from a re-analysis of the deposited data

How the results depend on the processing

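Hybridisation error is the only error these data hold, and dim members such as CHAC1 cannot be placed reliably. No paired analysis was possible because same-numbered arrays are repeat hybridisations of 1 RNA pool and no test was run. PPP1R15A was no longer called against siCTR, or against both controls, with differences centred on the median of measured genes (0 members higher). The mean over probe sets gave 1 member lower than siCTR and 1 lower than both controls, which was XBP1. That mean takes in the dim XBP1 probe set below the measured level, at 8.25 units in siPIR, which gave -1.66 from siCTR and -2.08 from NO. At 4 times the pseudocount 0 members were lower than NO. The filter at the 75th percentile removed CHAC1, which left 1 higher in siPIR than NO and 0 in siCTR. At 1.5-fold, counts were 3 lower than siCTR, 7 higher and 2 lower than NO, 1 lower than both, and 2 higher in siCTR than NO. With an array left out, counts ranged from 0 to 1 higher than siCTR and than both controls, from 1 to 2 higher and 0 to 1 lower than NO, and from 0 to 1 in siCTR against NO; PPP1R15A was lost without siPIR replicate 1 or siCTR replicate 1, XBP1 without siPIR replicate 1 or NO replicate 2, and CHAC1 without NO replicate 2.

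Medians moved by more than the array spread as follows. As the mean over probe sets, chaperones were 0.16 from NO (0.16 for siCTR against NO). The 3 degradation factors were at 0.36 and 0.087 from siCTR and NO (-0.15 for siCTR against NO). The sensors were -0.27 from NO (-0.10 for siCTR against NO). Besides other measured probe sets, this mean takes in probe sets below the measured level. That of HERPUD1 averaged 30.35, 10.6 and 18.1 units in siPIR, siCTR and NO, and gave 0.97 from siCTR and 0.51 from NO. That of EIF2AK3 averaged 5.15, 3.55 and 32.4 units in the same order, and gave -1.87 from NO. Without _x_at and _s_at probe sets, EDEM1 was the only degradation factor left that was measured. Its values were -0.82 from siCTR and -0.56 from NO (0.26 for siCTR against NO). In that setting, siCTR against NO gave 0.12 for 11 chaperones and 0.23 for 7 ATF4 targets. Under quantile normalization the chaperones were 0.14 between siCTR and NO, and with centring the ATF4 targets were 0.057 from siCTR. With the 75th percentile filter, sensors were -0.10 from NO (-0.010 for siCTR against NO) and ATF4 targets 0.064 between siCTR and NO.

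With an array left out, medians for siPIR minus siCTR ran from 0.04 to 0.13 (chaperones), -0.30 to -0.18 (degradation factors), 0.10 to 0.14 (ATF4 targets) and -0.11 to -0.0043 (sensors). For siPIR minus NO they ran from 0.19 to 0.29, -0.40 to -0.27, 0.19 to 0.41 and 0.02 to 0.14 in that order, and for siCTR minus NO from 0.14 to 0.17, -0.05 to 0.14, 0.054 to 0.19 and 0.054 to 0.090. The order siPIR above siCTR above NO held for 13 to 16 members with an array left out, where non-overlap is easier to meet (12.2% to 15.9% of all measured genes, against 10.6%). It held for 8 as the mean over probe sets (7.08%) and 7 of 24 without _x_at and _s_at probe sets (8.59%). The reverse order held for 3 to 4 (8.84% to 11.1% of all measured genes), 0 (6.54%) and 1 (7.58%) in these settings. The dim probe sets named above enter the mean over probe sets together with measured ones, and the cause of these shifts was not tested.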
